A study of Mus musculus with 21 samples.

Results

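The 10 genes described here are typical of fat cells (adipocytes) and were taken by name: *Adipoq*, *Lep*, *Retn*, *Cfd*, *Plin1*, *Cidec*, *Lpl*, *Cd36*, *Fabp4* and *Pparg*. All 10 were among the 38730 genes with at least 1 read in any of 21 mouse mammary tumors, and 5 of them (*Cfd*, *Lpl*, *Cd36*, *Fabp4* and *Pparg*) passed the filter on low counts that left 19315 genes for testing. Adipocytes fill the fat pad around the mammary ducts, store triglyceride in 1 large lipid droplet and secrete hormones. *Adipoq*, *Lep* and *Retn* encode the hormones adiponectin, leptin and resistin, and *Cfd* encodes the secreted protease adipsin (complement factor D). *Plin1* and *Cidec* encode proteins of the droplet surface. *Lpl*, *Cd36* and *Fabp4* encode the lipase, the membrane receptor and the carrier that bring fatty acids into the cell. *Pparg* encodes the nuclear receptor that drives adipocyte differentiation. The last 4 are also known from other cells of a tumor, among them macrophages for all 4, capillary endothelium for *Cd36* and *Fabp4*, and milk-secreting epithelium for *Cd36*.

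Bulk RNA was sequenced from mammary tumors of virgin female mice. All mice carried FloxNeoNeuNT, an oncogenic ErbB2/Neu cDNA at the endogenous locus that Cre switches on, together with MMTV-CreNLST, a Cre transgene driven by the mouse mammary tumor virus promoter in mammary epithelium. The 12 RhoC tumors came from mice that also carried R26(RhoC/+), a Cre-dependent RhoC allele, and the 9 control tumors came from mice without it, 7 of them with a *Gata4*(loxP/+) allele and 2 (N-15 and N-17) without. Each control tumor came from its own mouse, whereas the RhoC tumors came from 8 mice (counting R-18, whose label names no mouse, as its own), with 4 from mouse P497 (R-13 to R-16) and 2 from mouse N9255 (R-6 and R-7), so these 6 tumors are not independent samples of a mouse. Age at collection was not given per tumor in the sources used here. The paper reports that mice with the RhoC allele formed tumors much earlier than controls, so age and the allele cannot be told apart. Bulk libraries count the reads of all cells in a tumor piece together, so fewer cells of a type and less RNA per cell cannot be told apart.

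Total gene counts ranged from 47309780 to 100741339 per tumor, so 0 reads for a gene allow at most 3 counts, or 0.0341 to 0.063 CPM (counts per 1e6 counted reads, with library sizes scaled by TMM). This limit covers counting error only. The targeted gene *Rhoc* had a median of 50.7 CPM in controls (25.98 to 172) and 88.2 CPM in RhoC tumors (22.8 in R-2 to 148), and its log2 fold change of 0.19 ± 0.34 (SE) did not pass the test (edgeR quasi-likelihood adjusted p = 0.774). The cohorts overlapped in *Rhoc*. Control N-17 stood apart from the other 20 tumors. Its 10 skeletal muscle markers summed to 6622 CPM, against 0.606 to 895 CPM in the other tumors. Its 10 endothelial markers summed to 923 CPM, against 153 to 582 CPM elsewhere. Results on the 10 adipocyte genes are therefore given with and without N-17.

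In N-17 all 10 adipocyte genes had their highest level of any tumor, and 6 of them were nearly absent from most of the others. Over the 21 tumors N-17 alone held 81.8% of the summed CPM of *Adipoq*, 77.7% of *Lep*, 88.5% of *Retn*, 89.6% of *Cfd*, 85.8% of *Plin1* and 81.3% of *Cidec*. It held 39.9% of *Lpl*, 32.9% of *Cd36*, 34.0% of *Fabp4* and 44.0% of *Pparg*. For comparison, N-17 was the highest tumor for 6.0% of the tested genes (1159), and it held over 50% of the summed CPM of 73 of 19306 tested gene symbols (0.378%), *Cfd* among them. *Adipoq*, *Lep*, *Retn*, *Plin1* and *Cidec* failed the low-count filter, so these shares do not cover genes as sparse as they are. The shares over all genes with a count were not computed.

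**Figure D1:**
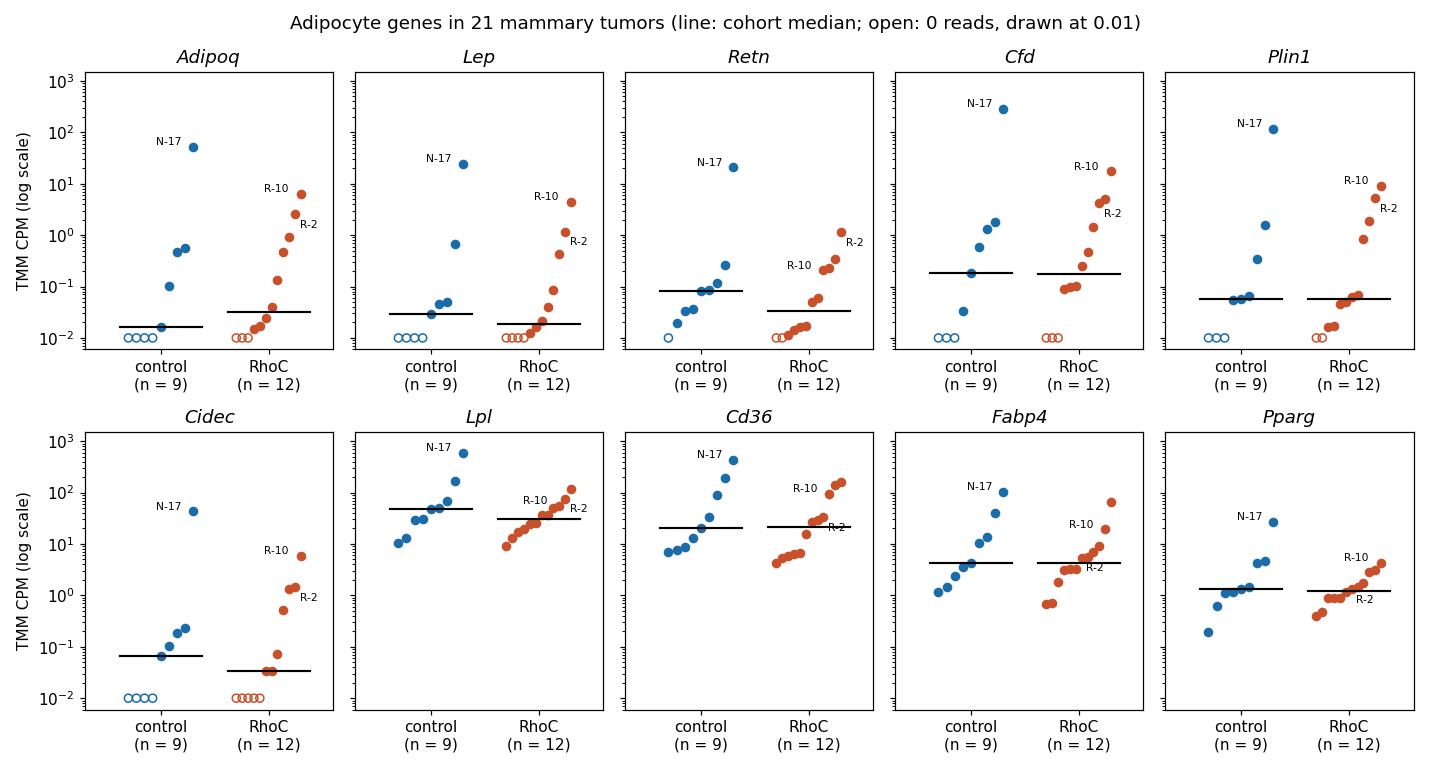
TMM CPM of each gene on a log scale in the 9 control tumors (blue) and 12 RhoC tumors (orange), sorted within each cohort. Black lines are cohort medians, and open circles are tumors with 0 reads, drawn at 0.01. N-17 lies above every other tumor in all 10 panels, and the cohorts overlap in each.

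Promoter windows of RefSeq (GRCm38.p6, 250 bases before to 50 bases after a transcript start) were matched by symbol for 8 of the 10 genes, giving 11 windows. Windows of *Fabp4* and *Lpl* are not shown. C/EBP factors, which act beside *Pparg* in adipocytes, bind a core that was searched as TTGCNNAA on both strands. It occurred in 10.8% of all 32851 windows and in 4 of the 11 windows, 1 each of 4 genes (*Lep*, *Plin1*, *Cidec* and *Pparg*). Its full palindrome TTGCGCAA, which the first pattern includes, occurred in 0.183% of all windows and in that of *Lep*. The sequences of *Lep*, *Plin1* and *Cidec* are shown because they hold a match and these 3 genes were among the 4 members with the highest r with *Adipoq*, with each match in capitals (*Cfd*, the other one, has no match).
Lep, chr6:29059971-29060270, plus strand: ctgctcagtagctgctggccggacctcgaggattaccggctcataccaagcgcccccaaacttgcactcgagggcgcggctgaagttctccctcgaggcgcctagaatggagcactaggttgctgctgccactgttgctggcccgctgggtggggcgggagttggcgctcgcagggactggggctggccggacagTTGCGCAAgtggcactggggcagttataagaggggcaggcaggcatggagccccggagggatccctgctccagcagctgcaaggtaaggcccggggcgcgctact
Plin1, chr7:79732727-79733026, minus strand: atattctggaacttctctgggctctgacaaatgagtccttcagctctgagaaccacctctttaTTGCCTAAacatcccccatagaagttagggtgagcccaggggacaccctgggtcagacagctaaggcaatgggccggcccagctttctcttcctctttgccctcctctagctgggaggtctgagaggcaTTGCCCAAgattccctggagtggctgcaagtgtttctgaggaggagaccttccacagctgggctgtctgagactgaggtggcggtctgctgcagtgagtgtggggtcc
Cidec, chr6:113434715-113435014, minus strand: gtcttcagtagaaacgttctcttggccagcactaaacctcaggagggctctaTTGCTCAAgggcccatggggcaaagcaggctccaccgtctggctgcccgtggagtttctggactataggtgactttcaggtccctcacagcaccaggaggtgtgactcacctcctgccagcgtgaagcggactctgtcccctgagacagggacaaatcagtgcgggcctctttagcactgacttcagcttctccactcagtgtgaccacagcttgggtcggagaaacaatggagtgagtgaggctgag
The match in *Lep* begins 55 bases before the start, those in *Plin1* begin 187 and 58 bases before it, and that in *Cidec* 198 bases before it. The window of *Adipoq* holds no match, nor do those of *Retn*, *Cfd* and *Cd36*, 1 of 2 windows of *Cidec* and 2 of 3 of *Pparg*. Single core sites of nuclear receptors, searched as AGGTCA on both strands, occurred in 16.3% of all windows and in 3 of the 11 (1 of *Cd36* and 2 of *Pparg*), and the direct repeat AGGTCANAGGTCA, which is the form that PPAR-gamma binds with RXR, occurred in 0.0396% of all windows and in none of the 11. A match is a string of letters and not a measured site, and a missing match says only that these letters are not in the window.

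*Adipoq* (ENSMUSG00000022878.5, GRCm38 chr16:23146536-23158028, plus strand) is the hormone made most exclusively by adipocytes. Control levels ranged from 0 to 52.6 CPM with a median of 0.0167 CPM, and RhoC levels from 0 to 6.34 CPM with a median of 0.0325 CPM. The highest tumors were N-17 with 3615 reads, R-10 with 367 and R-2 with 154, and 7 of the 21 tumors (4 control and 3 RhoC) had 0 reads. Below these 3, R-18, R-16, N-3 and N-4 held 22 to 44 reads each, and the other 14 tumors had under 20. The cohorts overlapped over the whole RhoC range. With N-17 the control mean was 5.98 ± 17.5 CPM (SD, n = 9) against 0.879 ± 1.88 CPM (SD, n = 12) in RhoC tumors. Both medians lay under the 0.0341 to 0.063 CPM that 0 reads allow, so their order was not resolved. Without N-17 the control mean was 0.144 ± 0.233 CPM (SD, n = 8).

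*Lep* (ENSMUSG00000059201.12, chr6:29060220-29073877, plus strand), the hormone that reports fat stores to the brain, ran from 0 to 24.7 CPM in controls (median 0.029) and from 0 to 4.49 CPM in RhoC tumors (median 0.0187). N-17 and R-10 were again the highest, followed by R-2 at 1.17 CPM and N-4 at 0.672 CPM. Only 5 tumors had 20 or more *Lep* reads, and 8 had none. *Retn* (ENSMUSG00000012705.16, chr8:3655770-3660110, plus strand), a hormone of mouse adipocytes linked to insulin resistance, reached 20.9 CPM in N-17 with 1437 reads. The next tumor was R-2 at 1.16 CPM, and R-10, second for the other 2 hormones, had 0.207 CPM from 12 reads. *Retn* thus had 20 or more reads in 2 tumors, and its median was 0.0833 CPM in controls and 0.0333 CPM in RhoC tumors. Both genes had overlapping cohorts.

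*Cfd* (ENSMUSG00000061780.6, chr10:79890853-79892655, plus strand), which cleaves factor B in the alternative complement pathway, passed the low-count filter, which the 3 hormones did not. Its control levels ran from 0 to 285 CPM (median 0.183) and its RhoC levels from 0 to 17.6 CPM (median 0.176). N-17 exceeded the next tumor, R-10, by 16.2-fold, and R-18 (4.96 CPM), R-2 (4.19), N-3 (1.84), R-16 (1.44) and N-4 (1.30) followed. In 6 tumors no read was counted. The cohort medians were nearly equal while the means were 32.1 ± 94.9 CPM (SD, n = 9) in controls and 2.44 ± 5.08 CPM (SD, n = 12) in RhoC tumors. Without N-17 the control mean of *Cfd* was 0.494 ± 0.708 CPM (SD, n = 8).

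*Plin1* (ENSMUSG00000030546.14, chr7:79720218-79732903, minus strand), which coats the droplet and controls lipase access, reached 118 CPM in N-17 from a control median of 0.0579 CPM, and 9.16 CPM in R-10 from a RhoC median of 0.0563 CPM. R-2 followed at 5.27 CPM, R-18 at 1.91 CPM and N-4 at 1.55 CPM. *Cidec* (ENSMUSG00000030278.11, chr6:113424634-113435760, minus strand), which fuses small droplets into 1 large droplet, was at 43.2 CPM in N-17 and 5.93 CPM in R-10, with R-2 at 1.46 CPM and R-18 at 1.31 CPM. It had 0 reads in 9 tumors, more than any other member, and its medians were 0.0667 CPM in controls and 0.0338 CPM in RhoC tumors. For both droplet genes the same 4 tumors led, and the cohorts overlapped.

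*Lpl* (ENSMUSG00000015568.16, chr8:68880491-68907448, plus strand), the lipase that frees fatty acids from blood lipoproteins, was counted in every tumor, with at least 460 reads. It ran from 10.4 (N-15) to 597 CPM (N-17) in controls with a median of 47.4 CPM, and from 9.23 (R-6) to 120 CPM (R-18) in RhoC tumors with a median of 31.1 CPM. N-17 lay 17.9-fold above the median of the other 20 tumors, and N-4 was second at 165 CPM. *Cd36* (ENSMUSG00000002944.15, chr5:17781690-17888801, minus strand), the fatty acid receptor, ran from 7.04 to 439 CPM in controls (median 20.65) and from 4.19 to 158 CPM in RhoC tumors (median 20.98). After N-17 its highest levels were in N-4 (188 CPM), R-18 (158) and R-7 (141), and R-7 had a single *Adipoq* read. The sums of 7 milk protein genes in N-4, R-18 and R-7 were 20100, 80040 and 41630 CPM, beside 77.8 to 19600 CPM in the other 18 tumors. R-10 and N-3, next in *Cd36* at 93.8 and 89.5 CPM, had milk sums of 77.8 and 785 CPM. N-8 and N-6, with milk sums of 19600 and 19520 CPM, had 20.65 and 33.6 CPM of *Cd36*, and whether milk-secreting cells contributed to *Cd36* was not tested.

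*Fabp4* (ENSMUSG00000062515.3, chr3:10204088-10208576, minus strand), the cytosolic fatty acid carrier, ran from 1.18 (N-9) to 104 CPM (N-17) in controls (median 4.25) and from 0.676 (R-14) to 66.7 CPM (R-6) in RhoC tumors (median 4.33). R-6 had 3325 *Fabp4* reads with 2 *Adipoq* reads, and it alone held 53.0% of the RhoC cohort's *Fabp4*. The other tumor of the same mouse, R-7, was at 3.18 CPM. R-6 also had the highest sums of squamous markers (4712 CPM) and of 7 epithelial markers (17210 CPM), and 161 CPM of endothelial markers, near the lowest, and their part in its *Fabp4* was not tested. *Pparg* (ENSMUSG00000000440.12, chr6:115360951-115490399, plus strand) ran from 0.19 (N-9) to 27.0 CPM (N-17) in controls (median 1.35) and from 0.401 (R-6) to 4.30 CPM (R-10) in RhoC tumors (median 1.24). The annotated antisense gene *Gm44079* overlaps *Pparg*, and the strand setting of counting was not stated, so reads of the pair cannot be told apart.

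Sorting the tumors from highest to lowest shows how few carried each gene. A single tumor, N-17, held over 50% of the summed CPM of 6 genes (*Adipoq*, *Lep*, *Retn*, *Cfd*, *Plin1* and *Cidec*), and the 3 highest tumors together held 94.8% (*Retn*) to 96.7% (*Cfd*). It took 2 tumors to reach 50% for *Lpl*, *Fabp4* and *Pparg* and 3 for *Cd36*, and 80% of these 4 genes took 9, 6, 8 and 6 tumors. For comparison, it took 7 tumors to reach 50% for the endothelial gene *Pecam1*, 5 for the epithelial gene *Krt8* and 9 for *Actb*. The choice of library size, of deposited FPKM (fragments scaled for gene length and library size by the authors) or of mouse means in place of tumors left the number of tumors to 50% as it was for the 10 genes, apart from *Cd36* with mouse means (2 mice).

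**Figure D2:**
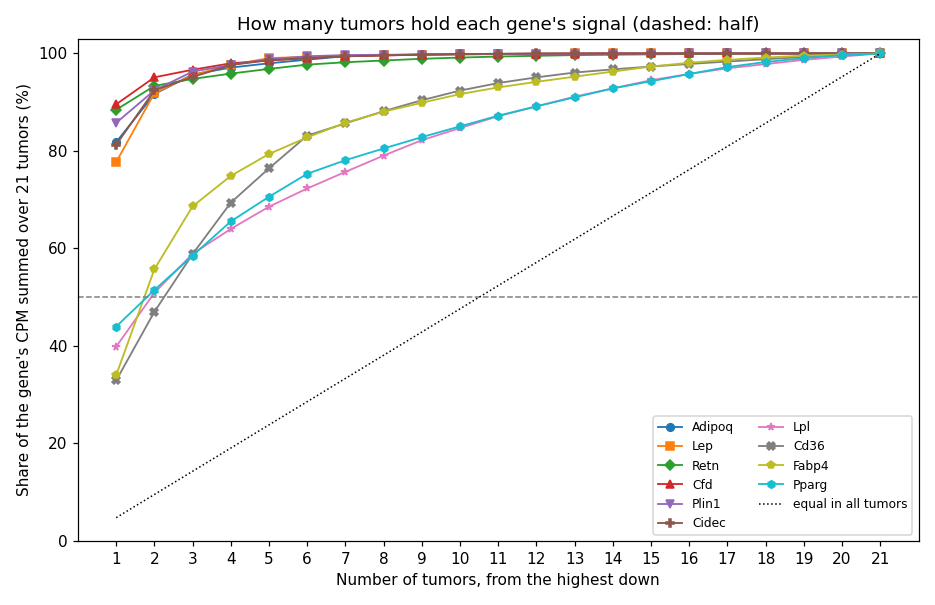
Cumulative share of each gene's CPM summed over 21 tumors (%), against the number of tumors taken from the highest down. *Adipoq*, *Lep*, *Retn*, *Cfd*, *Plin1* and *Cidec* begin at 77.7% to 89.6% with 1 tumor, and *Lpl*, *Cd36*, *Fabp4* and *Pparg* begin at 32.9% to 44.0%. The dotted line is a gene that is equal in all tumors.

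Within each cohort, too, a few tumors held most of the signal. N-17 held 96.9% (*Lep*) to 98.7% (*Cidec*) of the control sums of the 6 genes and 54.4% (*Cd36*) to 64.5% (*Pparg*) of the other 4. In the RhoC cohort R-10 led for *Adipoq* (60.1% of the cohort's CPM), *Lep* (71.6%), *Cfd* (60.3%), *Plin1* (52.5%), *Cidec* (63.3%) and *Pparg* (22.0%), R-18 led for *Lpl* (24.6%) and *Cd36* (30.0%), R-2 for *Retn* (55.0%) and R-6 for *Fabp4*. When N-17 was left out, 50% of the remaining signal still lay in 1 tumor for *Adipoq*, *Lep*, *Cfd* and *Cidec* (R-10), in 2 for *Retn*, *Plin1* and *Fabp4*, in 3 for *Cd36* and in 5 for *Lpl* and *Pparg*. Tumors of 1 mouse also differed. Of the 4 tumors of mouse P497, R-16 had 0.48 CPM of *Adipoq* and 1.44 CPM of *Cfd*, whereas R-13 and R-14 had 0 reads of both.

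Levels of different genes were compared per length, on the deposited FPKM. In N-17 the order ran from *Cfd* at 302 FPKM through *Lpl* (123), *Cd36* (119), *Fabp4* (114), *Adipoq* (37.2), *Plin1* (24.7), *Cidec* (22.7), *Retn* (12.9) and *Pparg* (10.3) to *Lep* (7.18). *Lpl*, *Cd36* and *Fabp4* stood close together, and with 1 tumor their order has no replicate error. In the other 20 tumors the medians put *Lpl* first (6.95 FPKM), then *Cd36* (5.04), *Fabp4* (4.32), *Pparg* (0.488) and *Cfd* (0.154), with the remaining 5 at 0.00561 (*Lep*) to 0.027 (*Retn*). The ranges of *Lpl* (1.98 to 34.9), *Cd36* (1.19 to 52.3) and *Fabp4* (0.751 to 75.6) overlapped over most of their length, so the order of these neighbours did not exceed their spread. *Cfd* thus moved from the fifth place to the first.

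RhoC tumors were compared with controls to ask whether tumor expression differed between the cohorts. None of the 5 adipocyte genes that could be tested passed, beside 43 of 19315 tested genes (0.223%) called at an adjusted p under 0.05 in edgeR. Among the 5 tested members the log2 fold changes were -3.72 ± 1.69 (SE) for *Cfd*, -1.47 ± 0.62 for *Lpl*, -1.03 ± 0.83 for *Cd36*, -0.94 ± 0.85 for *Fabp4* and -1.51 ± 0.66 for *Pparg*. Their edgeR quasi-likelihood adjusted p-values were 0.22, 0.195, 0.489, 0.547 and 0.207, and 3 of the 5 (*Cfd*, *Lpl* and *Pparg*) had an unadjusted p under 0.05, as did 3951 of all tested genes. The median over the 5 was -1.47, beside -0.005 over all tested genes. DESeq2 also called none of the 5, beside 1206 of the 19315 genes (6.24%), and its log2 fold change of *Cfd* had the other sign (1.03 ± 1.19 SE, DESeq2 adjusted p = 0.63).

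The other 5 genes have values from the same fit on all 38730 genes with a count, where 46 genes (0.119%) were called and no member was. Log2 fold changes there were -2.75 ± 1.56 (SE) for *Adipoq*, -2.43 ± 1.53 for *Lep*, -3.75 ± 1.32 for *Retn*, -3.18 ± 1.61 for *Plin1* and -2.63 ± 1.57 for *Cidec*, with edgeR adjusted p-values of 0.346, 0.396, 0.161, 0.293 and 0.374. DESeq2 on all genes, chosen after the data were seen, called without its replacement of outlying counts *Retn* alone of the 10 (-3.75, adjusted p = 0.0377), beside 1708 of 24463 genes (6.98%). With that replacement, which is its default, no member was called, beside 1439 of 25184 genes (5.71%), and the direction turned for 6 of the 10. Log2 fold changes were then 1.35 for *Adipoq*, 0.72 for *Lep*, 0.086 for *Retn*, 1.03 for *Cfd*, 0.17 for *Plin1* and 1.96 for *Cidec*, with DESeq2 adjusted p-values from 0.376 (*Cidec*) to 0.961 (*Retn*), and the median over the 10 was 0.13.

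Without N-17 the direction turned for 7 of the 10 genes. In the fit on all genes with a count, also chosen after the data were seen, log2 fold changes without N-17 were 2.603 ± 1.43 (SE) for *Adipoq*, 2.42 ± 1.45 for *Lep*, 1.09 ± 0.95 for *Retn*, 2.30 ± 1.42 for *Cfd*, 2.51 ± 1.44 for *Plin1*, 3.36 ± 1.45 for *Cidec* and 0.16 ± 0.78 for *Fabp4*. *Lpl* (-0.33 ± 0.48), *Cd36* (-0.03 ± 0.76) and *Pparg* (-0.16 ± 0.51) kept their sign at a smaller size. No member passed the test there, beside 28 of 38730 genes called (0.0723%), with edgeR adjusted p-values from 0.238 (*Cidec*) to 0.996 (*Cd36*). The median over the 10 was -2.53 with N-17 and 1.69 without it, while that over all genes was -0.033 and 0.014.

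**Figure D3:**
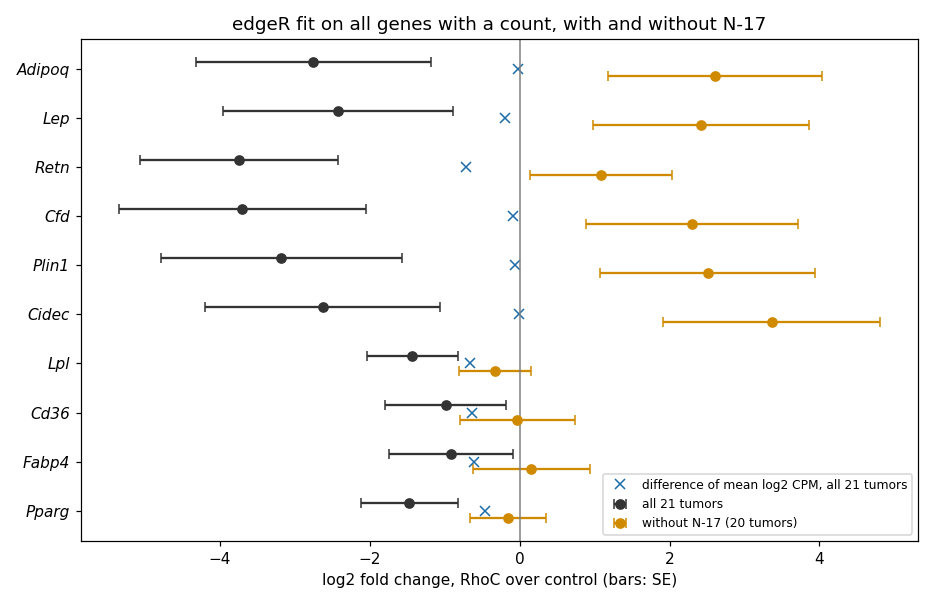
Log2 fold change of RhoC over control with its SE for each gene, from the fit on all genes with a count, over 21 tumors (black) and over the 20 tumors without N-17 (yellow). Crosses are differences of mean log2 CPM over 21 tumors. Black points lie between -3.75 and -0.92, and the 6 upper yellow points lie between 1.09 and 3.36.

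A count model follows the cohort means, on which 1 tumor weighs heavily, so the difference of mean log2 CPM was tested beside it by exact permutation over all 293930 labelings of 21 tumors. RhoC minus control came to -0.03 for *Adipoq* (two-sided exact p = 0.986), -0.20 for *Lep* (0.879), -0.72 for *Retn* (0.52), -0.09 for *Cfd* (0.956), -0.07 for *Plin1* (0.964) and -0.02 for *Cidec* (0.989). The 4 others were at -0.67 for *Lpl* (exact p = 0.308), -0.64 for *Cd36* (0.477), -0.61 for *Fabp4* (0.499) and -0.46 for *Pparg* (0.504). Without N-17 (125970 labelings) the sign turned for 7 of the 10, to 1.01 for *Adipoq* (exact p = 0.368), 0.76 for *Lep* (0.445), 0.16 for *Retn* (0.817), 1.10 for *Cfd* (0.411), 1.06 for *Plin1* (0.39), 1.01 for *Cidec* (0.346) and 0.02 for *Pparg* (0.964). *Lpl* (-0.22, exact p = 0.678), *Cd36* (-0.17, 0.844) and *Fabp4* (-0.12, 0.888) stayed below 0. Of the 12 RhoC tumors, 8 lay above the control median of *Adipoq*, 6 above that of *Cfd*, 4 above that of *Lpl* and 5 above that of *Pparg*. The control median of *Adipoq* was 1 read in N-7, and R-7, counted above it, also had 1 read, so that count shows no shift.

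Other members were compared with *Adipoq* across tumors in 9 relations on log2 CPM. Over 21 tumors Pearson's r was 0.97 for *Cfd*, 0.96 for *Plin1* and *Cidec* and 0.94 for *Lep*, each with a permutation p of 1e-05, the smallest that 100000 resamples can give (adjusted over the 9 relations, 2.25e-05). Spearman's rho for these was 0.92, 0.80, 0.81 and 0.81, with permutation p between 1e-05 and 0.0001 and adjusted values from 9e-05 to 0.000225. Without N-17 and R-10, the 2 tumors farthest from the *Adipoq* median, r was 0.94, 0.90, 0.90 and 0.84 over 19 tumors (adjusted permutation p 4.5e-05 to 0.000112). Spearman's rho over these 19 tumors was 0.89, 0.73, 0.74 and 0.74 (adjusted permutation p 9e-05 to 0.00115). Of these 19 tumors, 14 had under 20 *Adipoq* reads, 7 of them 0, so r there largely sets the few tumors with more reads against them. Tumors with under 20 *Adipoq* reads were not tested on their own.

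*Retn*, *Lpl*, *Cd36*, *Fabp4* and *Pparg* had lower r with *Adipoq*. Pearson's r was 0.78 for *Pparg* (permutation p = 5e-05, adjusted 9e-05), 0.76 for *Lpl* (0.00015, adjusted 0.000225), 0.73 for *Cd36* (0.00022, adjusted 0.000283), 0.72 for *Retn* (0.00147, adjusted 0.00165) and 0.60 for *Fabp4* (0.00442, adjusted 0.00442). Spearman's rho was 0.61, 0.63, 0.57, 0.41 and 0.49, with permutation p of 0.00433, 0.00253, 0.00709, 0.0672 and 0.0275, which adjust to 0.00649, 0.00455, 0.00912, 0.0672 and 0.031. Without N-17 and R-10 the relation of *Retn* (r = 0.42, permutation p = 0.0667) and of *Fabp4* (r = 0.34, permutation p = 0.158) did not pass. These 2 tumors were left out together, so the weight of each alone is not shown. *Lpl* (0.62), *Cd36* (0.59) and *Pparg* (0.55) held as Pearson's r with adjusted permutation p of 0.0074, 0.012 and 0.0178. As Spearman's rho over the same 19 tumors, *Lpl* held (0.52, adjusted permutation p = 0.0437), but *Cd36* (0.45, adjusted permutation p = 0.0672) and *Pparg* (0.48, adjusted permutation p = 0.0584) did not pass. Within cohorts r ran from 0.79 (*Retn*) to 0.98 (*Cfd*) in controls and from 0.36 (*Fabp4*) to 0.95 (*Cfd*) in RhoC tumors.

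**Figure D4:**
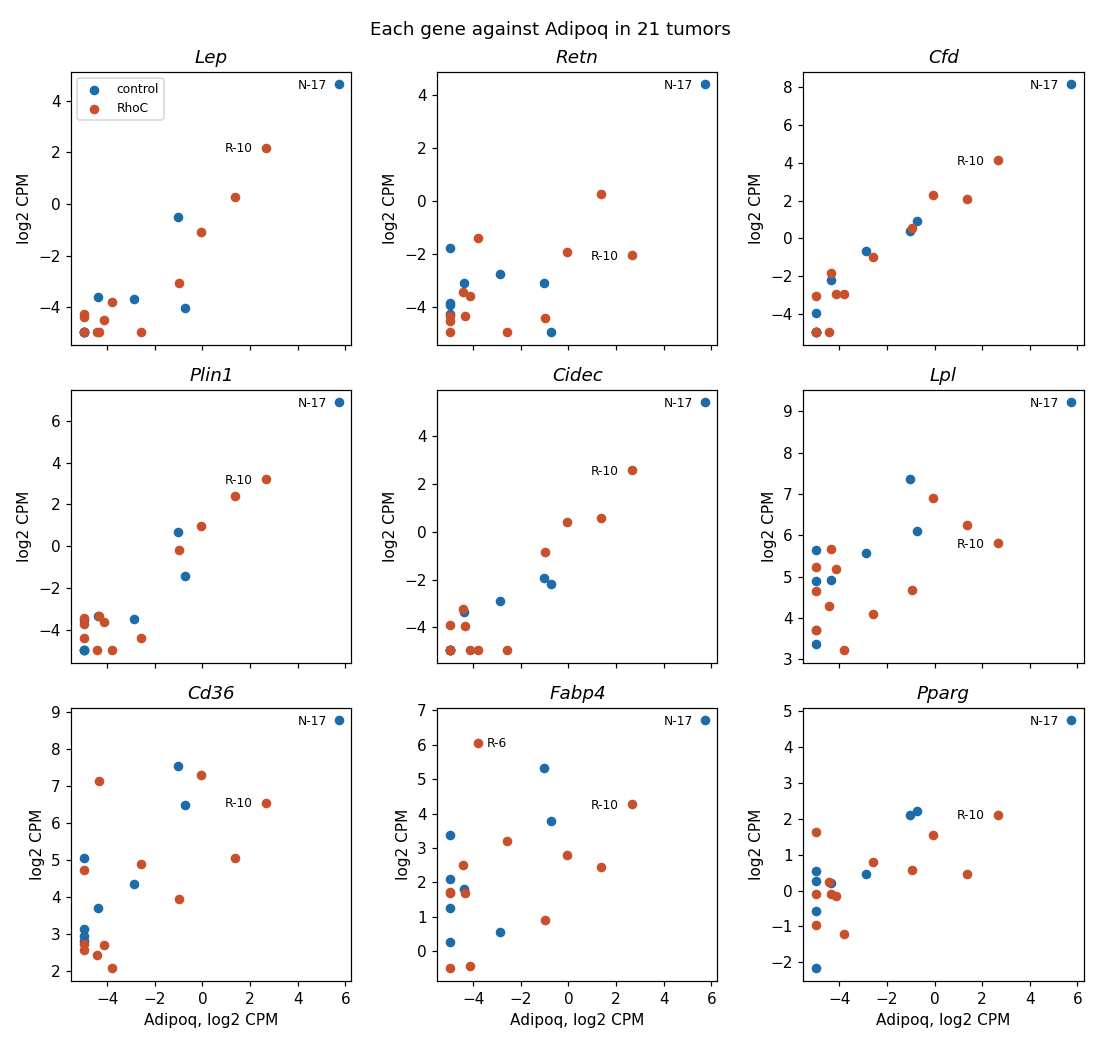
Log2 CPM of each other gene (vertical) against that of *Adipoq* (horizontal) in 9 control (blue) and 12 RhoC (orange) tumors. *Cfd*, *Plin1*, *Cidec* and *Lep* rise along a line, whereas *Fabp4* is high in R-6 at a low *Adipoq* level.

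*Adipoq* had at least 20 reads in 7 tumors, which allows ratios of CPM to it (a minimum chosen after the values were seen). In N-17, R-10 and R-2 the ratio of *Pparg* was 0.512, 0.678 and 0.519, that of *Fabp4* was 1.98, 3.02 and 2.10, and that of *Plin1* was 2.24, 1.44 and 2.05. The highest of these 3 ratios was 1.33 times the lowest for *Pparg*, 1.52 for *Fabp4*, 1.55 for *Plin1*, 1.56 for *Lep*, 1.65 for *Cidec*, 1.77 for *Cd36*, 3.34 for *Cfd*, 3.37 for *Lpl* and 13.7 for *Retn*, which was at 0.398 in N-17 and 0.448 in R-2 but 0.0327 in R-10. In the 4 tumors with less *Adipoq*, the *Fabp4* ratio was 24.4 in N-3, 85.8 in N-4, 3.82 in R-16 and 7.59 in R-18, against 1.98 in N-17. The *Cd36* ratio in these 4 was 159, 407, 32.4 and 173, against 8.34 in N-17. Of the members with reads in all 7 tumors *Cfd* varied least, from 1.62 (R-2) to 5.43 (R-18).

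Outside the 10 members, the 8 tested genes most like *Adipoq*, ranked by Pearson's r of log2 CPM over 21 tumors and given without a p since r chose them, were *Aqp7* (r = 0.86), *Plin4* (0.85), *Cd209a* (0.85), *Car3* (0.84), *Fign* (0.84), *Enpep* (0.83), *Dmrt2* (0.82) and *Serpina3c* (0.82). *Aqp7* encodes the glycerol channel of adipocytes and *Plin4* a further droplet coat protein, and both stand, with *Car3*, in the list of other adipocyte genes. N-17 held 77.9% of *Aqp7*, 85.2% of *Plin4* and 82.0% of *Car3*. It held 36.0% of *Cd209a*, and for *Fign* and *Enpep* the highest tumors were R-10 (8.34 CPM) and R-2 (48.5 CPM). Without N-17 and R-10 the 8 values of r were 0.58 (*Serpina3c*) to 0.77 (*Cd209a*).

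Further genes of the adipocyte program were taken as lists. Of 20 other adipocyte genes, 17 were tested, 4 were higher and 13 lower in RhoC tumors, none passed the test and the median log2 fold change was -0.60 (-0.05 without N-17). N-17 was the highest tumor for 12 of the 20. The smallest p among them belonged to *Trarg1*, a regulator of glucose transporter traffic (-1.56 ± 0.54 SE, edgeR adjusted p = 0.13), and *Plin4* (-3.32 ± 1.34, 0.178). Without N-17 *Trarg1* was at -0.42 and *Plin4* turned to 1.36 (edgeR adjusted p = 0.535 and 0.44). *Adrb3* and *Pck1*, the beta-3 adrenergic receptor and the enzyme that makes glycerol for triglyceride, did not pass the low-count filter, and N-17 held 89.0% and 92.1% of their summed CPM. *Cebpa*, which encodes C/EBP-alpha, was spread instead, with 67.9 CPM in N-17 and its highest level in R-6 (123 CPM).

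Enzymes of fatty acid and triglyceride synthesis are also used by milk-making epithelium. All 13 were tested, 7 were higher and 6 lower, none passed the test, the median was 0.07 (0.20 without N-17), and N-17 was the highest tumor for 2. *Mogat2* (2.50 ± 0.68 SE, edgeR adjusted p = 0.0803) and *Scd1* (-1.29 ± 0.48, 0.156) had the smallest p, and *Scd1*, the desaturase, was at 6746 CPM in N-17 and 4032 CPM in N-8, and its fold change was -0.74 without N-17. Of 9 brown adipocyte genes 4 were tested, all 4 were lower and none passed, with a median of -0.67 (-0.42 without N-17), led by *Prdm16* (-1.43 ± 0.69, 0.249) and *Cox7a1* (-0.77 ± 0.46, 0.343; -0.39 without N-17). N-17 was the highest tumor for 4 of the 9, namely *Ucp1*, the defining uncoupling protein of brown fat (0.16 CPM, beside 0.156 CPM in R-10), *Cox8b* (6.99 CPM), *Cox7a1* (2.68 CPM) and *Zic1* (1.06 CPM). It held 86.6% of *Cox8b* and 86.8% of *Zic1*. The next tumor for *Cox8b* and *Cox7a1* was R-1 (0.42 and 1.58 CPM), which had 507 CPM of skeletal muscle markers and 0 *Adipoq* reads. R-10, with 895 CPM of these markers, had 0.397 and 0.259 CPM. The part of muscle in these genes was not tested. *Prdm16* was at 17.6 CPM in N-1 and at most 4.41 CPM elsewhere, and its median was lower in controls (0.714 CPM) than in RhoC tumors (1.03 CPM). Of 9 adipocyte progenitor genes with a count, all were tested, 6 were higher and 3 lower, none passed and the median was 0.40, with *Icam1* (1.30 ± 0.58, 0.213) and *Dlk1* (1.75 ± 0.99, 0.32) first by p. Without N-17 the median was 0.44, *Icam1* was at 1.36 and *Dlk1* at 2.54. R-2 was the highest tumor for both, with 208 CPM of *Icam1* (63.0 CPM in the next tumor) and 15.5 CPM of *Dlk1* (2.33 CPM in the next).

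Markers of other tissue were set beside the adipocyte genes in each tumor. N-17 was the highest tumor for 10 of 10 skeletal muscle markers and held 75.5% of their sum. The muscle sum was also high in R-10 (895 CPM), N-3 (567 CPM) and R-1 (507 CPM). It was 0.798 to 2.08 CPM in R-2, R-18, N-4 and R-16, all of which had at least 22 *Adipoq* reads, and R-1 had 0 *Adipoq* reads, so muscle and adipocyte genes were not high in the same tumors throughout. N-17 was also highest for 8 of 10 endothelial markers, and R-10 had the next highest endothelial sum (582 CPM). Fibroblast sums were 7812 CPM in R-10 and 7127 CPM in N-17, against 256 to 6526 CPM in 18 others and 11320 CPM in R-13, which had 0 *Adipoq* reads. Epithelial sums were 1095 CPM in R-10, the lowest, and 1693 CPM in N-17, against 1441 to 17210 CPM in the others. The part of these cells in the results on the adipocyte genes was not tested.

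**Figure D5:**
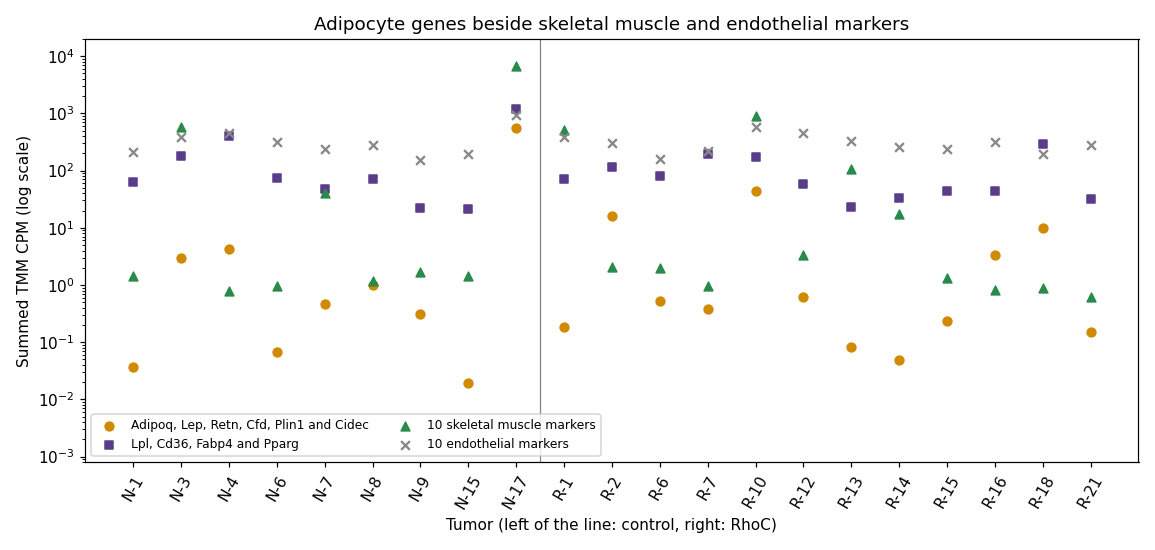
CPM per tumor on a log scale, summed over *Adipoq*, *Lep*, *Retn*, *Cfd*, *Plin1* and *Cidec* (circles), over *Lpl*, *Cd36*, *Fabp4* and *Pparg* (squares), over 10 skeletal muscle markers (triangles) and over 10 endothelial markers (crosses). The circles run from 0.0196 (N-15) to 544 (N-17), and the squares from 20.9 (N-15) to 1167 (N-17).

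No gene passed the test in the lists of other cell types either. Median log2 fold changes over the tested genes were -0.27 for 10 endothelial markers, where *Kdr* (-0.58 ± 0.34 SE, edgeR adjusted p = 0.339) and *Tek* (-0.60 ± 0.45, 0.458) had the smallest p. Without N-17 this median turned to 0.15, with *Kdr* at -0.015 and *Tek* at -0.21. Macrophage markers were at -0.24 over 10 (-0.20 without N-17), led by *Mertk* (-0.50 ± 0.23, 0.226) and *Cd163* (-1.71 ± 0.87, 0.27). Skeletal muscle markers were at -2.23 over 4, led by *Tnni2* (-2.58 ± 1.27, 0.254) and *Atp2a1* (-3.60 ± 1.91, 0.289), and without N-17 the median turned to 0.28, *Tnni2* was at -0.59 and *Atp2a1* turned to 0.21. Fibroblast markers were at -0.12 over 7, led by *Dcn* (-1.57 ± 0.63, 0.175) and *Thy1* (0.62 ± 0.31, 0.251), and their median turned to 0.22 without N-17.

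The other 3 lists kept the sign of their medians without N-17, but single tumors other than N-17 led their genes. Milk protein genes had a median of 2.71 over 7 (3.06 without N-17), led by *Wap* (5.92 ± 2.15 SE, edgeR adjusted p = 0.143) and *Glycam1* (4.68 ± 1.87, 0.174). R-18 was the highest tumor for both, at 1193 and 1468 CPM, while the control and RhoC medians were 0.623 and 0.639 CPM for *Wap* and 6.08 and 3.19 CPM for *Glycam1*. Epithelial markers were at -0.15 over 7 (-0.23 without N-17), led by *Krt14* (3.05 ± 1.69, 0.31) and *Krt5* (2.88 ± 1.86, 0.385), both highest in R-6 (9516 and 6276 CPM). Squamous markers were at 2.58 over 3 (2.41 without N-17), led by *Krt10* (-5.07 ± 1.10, 0.0536) and *Ivl* (3.005 ± 1.68, 0.313). *Krt10* was at 285 CPM in N-1, with medians of 0.96 CPM in controls and 1.03 CPM in RhoC tumors, and *Ivl* was highest in R-6 (29.1 CPM). Without N-17 the adjusted p of *Krt10* was 0.0394.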

How the data were processed

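Total RNA of 21 mammary tumors (9 control, 12 RhoC; ribosomal RNA depleted, Illumina Stranded Total RNA Prep with Ribo-Zero Plus) was sequenced as paired reads. The authors trimmed reads with Trim Galore 0.5.0, aligned them with STAR 2.6.0c to GRCm38.p6 and deposited raw counts per gene from HTSeq 0.6.1p2 (versions per the submitters' processing notes), keeping uniquely mapping reads on 1 gene. The annotation release and the strand setting of counting are not given in the sources used here. FPKM values were scaled and deposited by the authors and were used only for comparisons per gene length, for checks and for gene names and positions. Columns with the authors' own comparisons (fold changes and p-values from DESeq2 and edgeR) were not used.

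Counts of 38730 genes with a read were scaled by TMM. Genes passing filterByExpr by cohort (19315) were tested with edgeR 4.0.16 (quasi-likelihood, no covariates, R 4.3.3) with a call at an adjusted p (Benjamini-Hochberg) below 0.05. The SE is the log2 fold change divided by the square root of F. Log2 CPM used a prior count of 2. Single genes were also compared by an exact permutation test, and correlations were tested with 100000 resamples (numpy 2.4.6). The steps were checked on simulated counts. Total counts of 47309780 to 100741339 set the precision of low counts.

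Named genes were all 10 members, *Rhoc*, the 8 tested genes outside the members with the highest r with *Adipoq*, and in each list every gene called or otherwise the 2 with the smallest p; *Adrb3*, *Pck1*, *Cebpa*, *Ucp1*, *Cox8b*, *Zic1*, *Krt8*, *Pecam1* and *Actb* were named after their values were seen. The members and the gene lists were chosen with earlier results of these data known. No source says that tumor numbers pair tumors across cohorts, and p-values treat the tumors as independent although some share a mouse. Alternatives were DESeq2 1.42.0, all genes with a count, library size, counts summed per mouse, limma 3.58.1 (voom, mouse as random effect), *Gata4*(loxP/+) controls alone, no tumors of mouse P497, each tumor left out, a replicate block, and limma on log2(FPKM + 0.1). The mouse of R-18 is not given in its label, and it was counted as a mouse of its own.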

Additional observations from a re-analysis of the deposited data

Results flagged for a closer look

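In the 9 controls, the gap of N-17 to the next control, as a share of the group's whole range of log2 CPM, was above Dixon's 95% critical value for 9 samples (0.493) for 6 of the 10 adipocyte genes. It was 0.605 for *Adipoq*, 0.535 for *Lep*, 0.66 for *Retn*, 0.552 for *Cfd*, 0.524 for *Plin1* and 0.707 for *Cidec*. The low end of each of these ranges is a control with 0 reads, whose log2 CPM is set by the prior count of 2, so these shares depend on that choice. Chance flags about 1 in 20 such groups, and the 6 genes share the same tumor, so they are not 6 independent signs. For *Lpl*, *Cd36*, *Fabp4* and *Pparg* no control stood out by this measure. The 12 RhoC tumors were too many for it and were not tested.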

How the results depend on the processing

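No member was called under the alternatives named among the methods, nor without any 1 of the 21 tumors (0 in each), and DESeq2 on all genes without outlier replacement, chosen after seeing the data, called 1 (*Retn*). The count of all called genes was 43 and came to 1206 with DESeq2, 27 with library size, 3 with counts summed per mouse, 3 with voom, 438 with only *Gata4*(loxP/+) controls, 3 without the tumors of mouse P497, and 14 (without N-9) to 346 (without N-15) with 1 tumor left out. Chosen after seeing the data, DESeq2 on all genes gave 1439, or 1708 without outlier replacement, and all genes without N-17 gave 28. The replicate block on the 4 numbers that both cohorts share (8 tumors) called 0 genes at an adjusted p under 0.05, with 1346 under an unadjusted 0.05, and the same 8 tumors without the number term (added after seeing the data) also 0, with 2119. Tumors with the same number deviated from their cohort means with r of -0.237, -0.185, -0.00294 and 0.0217. These values give no sign of a pairing by number but cannot exclude one with a small effect on expression. The median log2 fold change of the tested members, -1.47, ran from -1.62 (without N-15) to -0.07 (without N-17), and was -0.38 with voom, -0.24 with only *Gata4*(loxP/+) controls, 0.04 with the replicate block, 0.87 in its 8 tumors with no number term, and over all 10 members -2.53 on all genes and 1.69 on all genes without N-17. *Cfd* (-3.72) turned to 1.03 with DESeq2 on tested and on all genes, 0.37 with voom, 2.11 with only *Gata4*(loxP/+) controls and 2.30 without N-17 in both fits, with a range of -4.93 to 2.30 over single tumors left out. DESeq2 on all genes, which replaces outlying counts, turned *Adipoq* to 1.35, *Lep* to 0.72, *Retn* to 0.086, *Plin1* to 0.17 and *Cidec* to 1.96. All genes without N-17 gave 2.603, 2.42, 1.09, 2.51 and 3.36 for these 5 and 0.16 for *Fabp4*, which was 0.13 among tested genes without N-17. In the 8 tumors of the block *Lpl* was at 0.09 and *Cd36* at 0.56, and without the number term *Lpl* was at 0.13, *Cd36* 1.48, *Fabp4* 1.79 and *Pparg* 0.25. Of 188 alternative values of members' fold changes, 24 had the other sign, none of them called. The fit with only *Gata4*(loxP/+) controls and those on the 8 tumors with shared numbers (1, 6, 7 and 15) also lacked N-17. They are thus further fits without N-17. Without N-17 (chosen after seeing the data) the difference of mean log2 CPM turned to 1.01 for *Adipoq*, 0.76 for *Lep*, 0.16 for *Retn*, 1.10 for *Cfd*, 1.06 for *Plin1*, 1.01 for *Cidec* and 0.024 for *Pparg*. Leaving out 1 tumor moved *Lpl* between -1.75 and -0.35, *Cd36* between -1.42 and -0.07, *Fabp4* between -1.90 and 0.13 and *Pparg* between -1.75 and -0.19. For *Adipoq*, *Lep*, *Retn*, *Plin1* and *Cidec*, which failed the filter, only the fits on all genes and on FPKM gave values. The median number of tumors that hold 50% of the signal was 1 and became 2 without N-17. The median r with *Adipoq*, 0.78, was 0.63 as rho and 0.62 without N-17 and R-10. Depth limits *Adipoq*, *Lep*, *Retn*, *Plin1* and *Cidec* to a description in the 14 to 19 tumors where each had under 20 reads. The causes of these changes were not tested.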

Other observations

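Of the 73 tested gene symbols for which N-17 held over 50% of the summed CPM, 4 were other adipocyte genes (*Plin4*, *Acvr1c*, *Aqp7* and *Car3*), 4 were skeletal muscle markers (*Acta1*, *Mylpf*, *Tnni2* and *Atp2a1*), 1 was *Cfd* and 64 were in none of the lists. Among those 64, named after their values were seen, were the sarcomere genes *Ttn* (83.0% in N-17, at 14210 CPM there) and *Neb* (83.3%, 2311 CPM) and the muscle glycogen phosphorylase gene *Pygm* (88.1%, 384 CPM). *Lasp1* (60.7%, 6663 CPM) and *Socs7* (60.1%, 1245 CPM) were also among them.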
